A study of Mus musculus with 18 samples.

Results

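The 40 genes described here drive or restrain cell division and DNA replication. They encode G1 cyclins and their kinases, inhibitors of those kinases, the transcription factor E2F1, and the proteins that license and open replication origins. Others encode enzymes that make DNA and its building blocks, the cyclins of S phase and mitosis, and mitotic kinases and checkpoint proteins. The 40 genes were picked by symbol from a table of 34745 mouse genes. All 40 were in it, and all 40 passed the filter on low counts that left 12782 genes for testing. In macrophages 8 h after LPS, none of the 40 genes differed between Mkrn2 knockout and wild-type libraries past the threshold, in total, polysome or monosome RNA. Of all genes tested, 0.0156%, 0.0156% and 0.25% did so in these fractions. Under 3 other settings of the test, 1 of the 40, Ccne1, passed in monosome RNA. Between polysome and monosome RNA 29 of the 40 differed, near the share of 67.9% over all genes, in directions that depend on how the monosome libraries are scaled. Cdkn1a, which encodes the cell cycle inhibitor p21, stood far above every other gene of the group.

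A cell enters S phase when D-type cyclins with Cdk4 or Cdk6, and then cyclin E with Cdk2, phosphorylate the RB protein and release E2F factors, which switch on genes of DNA synthesis. In G1 the proteins Cdc6 and Cdt1 load the MCM helicase onto origins, and Cdc45 and the GINS complex turn it on in S phase. Cyclin A and cyclin B with Cdk1 then take the cell into mitosis. M-CSF is a mitogen of macrophages, and LPS is known to halt the proliferation of cultured macrophages that M-CSF drives.

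Mouse macrophages had been raised from marrow of the thigh bone: 6 days in M-CSF at 20 ng/ml, followed by 8 h of LPS at 100 ng/ml. The groups were Mkrn2 knockout (KO, mkrn2-/-) and wild type (WT, mkrn2+/+), each as total RNA, polysome RNA (mRNAs that carry several ribosomes) and monosome RNA (the fraction of lone ribosomes), with 3 libraries a group and 18 in all. Every group had M-CSF and LPS, so no value here shows what LPS did to these genes. Mkrn2 encodes a zinc finger E3 ubiquitin ligase that binds RNA. The labels name neither the allele nor the age of the mice, and they do not say whether the 3 libraries of a group came from separate animals or cultures, so p-values measure the spread between these libraries only.

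Libraries held 9190034 to 16711558 counts. In CPM, counts divided by library size after scaling with the trimmed mean of M-values (TMM), Mkrn2 RNA stood at 53.7, 57 and 60.6 in KO total RNA, against 66.9, 59.7 and 66.3 in WT total RNA. The 2 sets overlapped, with a log2 difference of -0.17 ± 0.08 (adjusted p = 0.855) in total, -0.15 ± 0.08 in polysome and -0.37 ± 0.08 (adjusted p = 0.086) in monosome RNA. The labels do not say which bases were deleted, so these counts check the labels only in part, and KO below names the libraries labelled so. Summed macrophage markers (10 genes) stood at 11732 to 12125 CPM in KO and 10868 to 12191 CPM in WT total RNA and overlapped, but in polysome RNA they stood apart, at 10248 to 10922 CPM in KO and 9436 to 9674 CPM in WT. The sum of the neutrophil markers stood apart in monosome RNA, at 13.6 to 14.8 CPM in KO and 7.71 to 11.5 CPM in WT. Most of it was S100a8, with means of 10.1 CPM in KO and 6.41 CPM in WT. S100a9 of the same list was at 0 in 3 of 3 KO and 3 of 3 WT monosome libraries. Of 8 markers of granulocyte and monocyte progenitors, a dividing cell type of marrow, Mpo, Elane, Ctsg and Ms4a3 were at 0 in all 6 total libraries. The list summed to 6.12 to 7.48 CPM in KO and 5.59 to 7.67 CPM in WT. Nearly all of that sum was Cd34, with means of 6.22 CPM in KO and 6.03 CPM in WT total RNA. Markers of stromal cells, which can grow in such cultures, moved with the genotype labels in all 3 fractions: the list of 10 summed to 403 to 491 CPM in KO and 296 to 384 CPM in WT total RNA, 225 to 249 and 157 to 194 CPM in polysome RNA, and 449.6 to 475 and 363 to 434 CPM in monosome RNA. All 9 of its tested genes were on the KO side in total and polysome RNA and 8 of 9 in monosome RNA, none past the threshold, and Postn was at 0 in 2 of 3 KO total libraries. The part of these marker lists in the differences below was not tested. In such bulk samples, fewer dividing cells and less RNA per cell cannot be told apart.

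Some of the genes share promoter motifs. Shown are 4 promoters with motifs by which genes of S phase and genes of G2 and M are usually told apart. RefSeq promoter windows (GRCm38.p6, 250 bases before to 50 after the start of a gene) covered 33 of the 40 genes, and not Ccnd1, Ccnd2, Ccne2, Ccna2, Gins2, Mcm4 and Aurkb. Capitals mark an E2F motif (TTTNGCGC on either strand) in Mcm5, Mcm6 and Cdk1, and a cell cycle homology region or CHR (TTTGAA or TTCGAA on either strand), the element of G2 and M genes, in Ccnb2 and Cdk1. In Mcm5 and Mcm6 the E2F motifs of the 2 strands overlap each other.
Mcm5 (chr8:75109259-75109558, plus strand): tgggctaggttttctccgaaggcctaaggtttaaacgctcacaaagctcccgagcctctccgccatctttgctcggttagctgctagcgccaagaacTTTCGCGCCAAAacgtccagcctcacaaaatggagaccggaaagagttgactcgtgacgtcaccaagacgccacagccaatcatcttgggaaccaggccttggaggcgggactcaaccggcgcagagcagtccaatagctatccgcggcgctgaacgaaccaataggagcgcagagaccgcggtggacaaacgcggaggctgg
Mcm6 (chr1:128359656-128359955, minus strand): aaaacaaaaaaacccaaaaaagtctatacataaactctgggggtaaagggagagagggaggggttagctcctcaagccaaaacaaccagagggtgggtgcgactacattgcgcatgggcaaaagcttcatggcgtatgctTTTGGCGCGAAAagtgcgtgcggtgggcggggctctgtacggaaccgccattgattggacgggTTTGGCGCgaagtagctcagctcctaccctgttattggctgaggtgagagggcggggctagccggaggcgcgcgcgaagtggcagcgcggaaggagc
Cdk1 (chr10:69352863-69353162, minus strand): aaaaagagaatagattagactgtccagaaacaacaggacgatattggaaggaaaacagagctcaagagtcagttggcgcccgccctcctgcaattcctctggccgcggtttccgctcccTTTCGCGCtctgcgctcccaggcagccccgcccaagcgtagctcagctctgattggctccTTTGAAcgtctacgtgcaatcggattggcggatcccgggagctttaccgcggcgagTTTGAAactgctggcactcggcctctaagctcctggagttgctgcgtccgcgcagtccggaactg
Ccnb2 (chr9:70421505-70421804, minus strand): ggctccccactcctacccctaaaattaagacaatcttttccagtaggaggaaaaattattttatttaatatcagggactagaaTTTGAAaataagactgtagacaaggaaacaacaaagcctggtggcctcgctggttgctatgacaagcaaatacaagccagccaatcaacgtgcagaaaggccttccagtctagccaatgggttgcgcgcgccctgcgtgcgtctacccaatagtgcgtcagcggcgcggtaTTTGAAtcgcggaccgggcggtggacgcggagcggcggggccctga

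The E2F motif stood in 5 of the 8 licensing and helicase genes with a window (Cdt1, Mcm3, Mcm5, Mcm6 and Mcm7), in Lig1 and in Cdk1, which is 7 of 33 genes, against 1.57% of all 27025 genes with a window. The CHR stood in 7 of the 8 mitotic genes with a window (all but Birc5) and in 12 of 33 genes in all, against 21.7% of all genes. Outside the mitotic genes it was in Ccnb2 and Cdk1 and in 3 of 8 licensing genes, Cdc45, Mcm2 and Mcm7. The CCAAT box bound by NF-Y was found on either strand in 23 of 33 genes, against 41.1% of all genes. A match says only that the letters are in the window.

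Levels between genes are compared in the deposited FPKM, which divide counts by a gene length that is not given. That length was not on 1 basis. In WT total replicate 1, Cdt1 had 362 counts and 14.5 FPKM, with a GENCODE M21 transcript of 2189 bases. Cdc6 had 20 counts and 0.182 FPKM there, with a transcript of 2559 bases, which implies a far longer divisor. Ratios and ranks between genes below hold on the deposited scale only. Cdkn1a (ENSMUSG00000023067, chromosome 17, 29090979 to 29100722 in the coordinates of the deposited table) averaged 196 ± 8.42 FPKM in KO and 226 ± 9.26 FPKM in WT total RNA (SD, n = 3 each). The median gene of the 40 had 1.72 FPKM over the 6 total libraries, and 12 genes were under 1 FPKM. Next came Pcna, the sliding clamp of DNA polymerases, with 23.8 ± 1.18 FPKM in KO and 23.1 ± 1.67 FPKM in WT, and Cdk4 with 21.4 ± 2.78 and 21.2 ± 1.24 FPKM. Their libraries overlapped, so Pcna and Cdk4 cannot be ordered on this scale. Cdt1, which loads the MCM helicase, followed with 20.8 ± 0.766 FPKM in KO and 16.1 ± 1.4 FPKM in WT, and then Ccne1 (cyclin E1) with 8.93 ± 1.12 and 10.4 ± 0.698 FPKM and Ccnd2 (cyclin D2) with 8.99 ± 0.656 and 10.2 ± 0.248 FPKM. In FPKM Cdt1 overlapped Cdk4 in KO, and Ccne1 overlapped Ccnd2 in both genotypes. Not divided by length, mean CPM of Cdk4, Pcna and Cdt1 were 109, 66.4 and 36.2 in KO and 107, 64.1 and 27.8 in WT. Their transcripts have 2053, 1518 and 2189 bases, so the order of these genes depends on the length used.

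Genes that act at 1 step of the cycle were far apart in deposited FPKM, and the unlike lengths behind the FPKM enter these ratios. In FPKM Cdt1 stood 158 to 229 times as high as Cdc6 in the KO total libraries, and 74.7 to 79.6 times in the WT ones. Mean CPM, not divided by length, were nearer, at 36.2 and 0.839 in KO and 27.8 and 1.58 in WT. Cdc6 had only 11 to 22 counts a library in KO and 20 to 27 in WT. Of the cyclins E, which are alternative partners of Cdk2, Ccne1 stood 36.0 to 44.9 times as high as Ccne2 in KO and 33.3 to 44.4 times in WT total RNA, in FPKM. Their mean CPM were 26.7 and 1.44 in KO and 31 and 1.74 in WT, with transcripts of 2000 and 2908 bases. Among the MCM helicase subunits, which form a ring with 1 copy of each, Mcm6 averaged 7.87 ± 0.615 FPKM in KO and 7.47 ± 0.219 FPKM in WT, and Mcm2 averaged 0.935 ± 0.196 and 0.921 ± 0.119 FPKM. The ratio of Mcm6 to Mcm2 in FPKM was 6.61 to 11.1 in KO and 7.55 to 9.21 in WT total RNA. Their mean CPM were 36.3 and 6.65 in KO and 34.3 and 6.51 in WT, with transcripts of 2910 and 3371 bases. The remaining subunits, Mcm3, Mcm4, Mcm5 and Mcm7, averaged between 1.46 and 3.05 FPKM in KO and between 1.36 and 2.92 FPKM in WT.

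Many genes were low on the deposited FPKM scale, among them genes of mitosis, of G1 and S phase and of replication. Mki67, the proliferation marker Ki-67, averaged 0.946 ± 0.149 FPKM in KO and 0.87 ± 0.0707 FPKM in WT, and Top2a, the topoisomerase that untangles chromosomes, 0.906 ± 0.142 and 0.839 ± 0.05 FPKM. Ccnb1 (cyclin B1) averaged 0.305 ± 0.0265 FPKM in KO and 0.242 ± 0.0552 FPKM in WT, on 34, 43 and 28 counts in KO and 23, 18 and 30 counts in WT. Cdc6, Bub1, Ccne2 and Aurkb averaged between 0.11 and 0.351 FPKM in KO and between 0.208 and 0.291 FPKM in WT. Not divided by length, their means were 0.839, 1.1, 1.44 and 1.62 CPM in KO and 1.58, 1.04, 1.74 and 1.33 CPM in WT. Tyms averaged 0.551 FPKM in KO and 0.493 FPKM in WT, Prim1 0.845 and 0.796 FPKM, and Cdc45 0.899 and 1.03 FPKM. The mitotic group as a whole summed to 36.7 ± 2.38 CPM in KO and 33 ± 1.96 CPM in WT total RNA (9 genes), the G1 cyclins and their kinases to 357 ± 9.64 and 368 ± 11.9 CPM (8 genes).

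**Figure D1:**
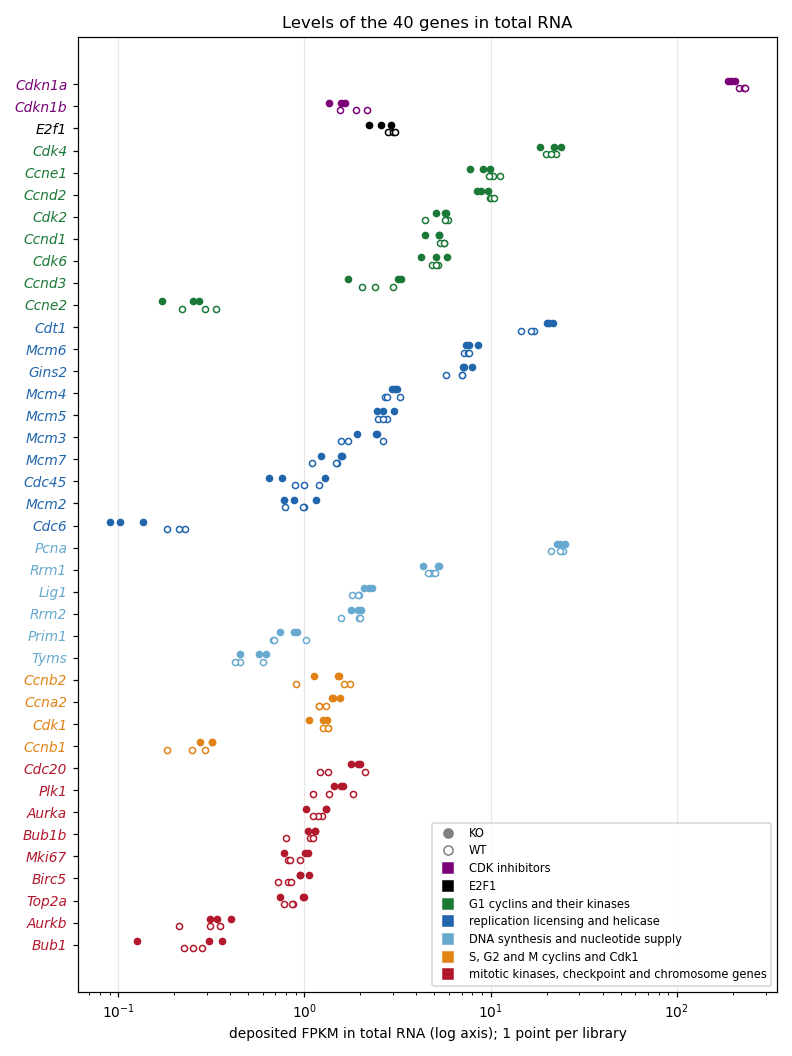
Deposited FPKM (log axis) of the 40 genes in the 3 KO (filled, upper) and 3 WT (open, lower) total RNA libraries, by role and then by mean level. Cdkn1a stands near 200 FPKM, and most genes of mitosis and the S, G2 and M cyclins stand near or under 1 FPKM.

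Some counts are uncertain. Pcna has a processed pseudogene, Pcna-ps2, with 416 to 965 counts a library, whose reads may belong to Pcna. With the counts of Pcna and Pcna-ps2 added together, an alternative chosen after the data were seen, the same comparisons passed for Pcna. Gins2, of the GINS complex, shares 2758 of 4097 exonic bases with Gse1 on the opposite strand, and Ccnd1 (cyclin D1) shares 1100 of 4709 with Oraov1. Likewise Cdk4 shares 641 of 3249 with Tspan31, Ccne2 609 of 3495 with Ints8 and Ccna2 510 of 4083 with Exosc9. Shorter stretches are shared by Ccnd2 (372 bases with Gm43126), Cdk6 (368 with Gm17590), Ccnd3 (361 with Bysl) and Mcm7 (321 with Ap4m1). The same holds for Lig1 (247 with 6330408A02Rik), Cdc45 (209 with Ufd1l), Plk1 (156 with RP23-136G1.3) and Cdc20 (53 with Elovl1). In total RNA Gse1 had 362 to 647 counts beside 317 to 573 of Gins2, and Oraov1 361 to 557 beside 269 to 313 of Ccnd1. There Tspan31 had 1634 to 2164 counts beside 1492 to 2332 of Cdk4. Ints8 had 166 to 235 beside 17 to 33 of Ccne2, and Exosc9 233 to 383 beside 86 to 148 of Ccna2. In monosome RNA Ufd1l had 99 to 140 counts beside 2 to 15 of Cdc45. Since the sources used here do not say whether counting used the strand, reads of these pairs cannot be told apart.

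The comparison of KO with WT asks whether loss of Mkrn2 goes with other amounts of these mRNAs. By edgeR's quasi-likelihood test with Benjamini-Hochberg adjustment over 12782 genes, 0 of the 40 passed the threshold of 0.05 in total RNA, where 0.0156% of all genes did. The count was also 0 in polysome RNA (0.0156% of all genes, 0.00782% in each direction) and in monosome RNA (0.25%, with 0.125% in each direction). At an unadjusted p under 0.05, 1 gene was higher and 3 were lower in KO total RNA (5.84% of all genes, 3.15% higher and 2.7% lower). In polysome RNA 3 were higher and 1 lower (6.99%, with 4.12% and 2.86%), and in monosome RNA 3 were higher and 4 lower (11.7%, with 5.32% and 6.38%). With DESeq2 the counts past the threshold were 0, 0 and 1, the gene being Ccne1.

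Differences were small and leaned to the KO side in total RNA. There 29 of 40 genes had a positive log2 difference, with a median of 0.06, against 51.9% and a median of 0.01 over all genes tested. In polysome RNA 24 of 40 were positive with a median of 0.06 (all genes 51.2% and 0.01), and in monosome RNA 18 of 40 with a median of -0.03 (all genes 48% and -0.01). KO and WT libraries did not overlap for 5 genes on the KO side and 4 on the WT side in total RNA, where 7.04% and 6.56% of all genes did so. The 5 were Birc5, Ccna2, Cdt1, Gins2 and Lig1, and the 4 were Ccnd1, Ccnd2, Cdc6 and Cdkn1a. Ccna2, Gins2, Lig1, Ccnd1 and Ccnd2 are among the genes named above that share exonic bases with a gene on the opposite strand. The same counts were 8 and 4 in polysome RNA (8.23% and 6.67%) and 4 and 2 in monosome RNA (5.98% and 6.49%).

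By role, all 9 mitotic genes were positive in total RNA (median 0.13), as were all 6 genes of DNA synthesis (median 0.08) and 8 of 10 licensing genes (median 0.08). Both CDK inhibitors and E2f1 were negative, and of the G1 cyclins and kinases 4 of 8 were positive. In polysome RNA 7 of 9 mitotic genes, 5 of 6 of DNA synthesis, 7 of 10 of licensing and 1 of 8 G1 genes were positive. In monosome RNA 3 of 9 mitotic genes, 2 of 6 genes of DNA synthesis, 7 of 10 of licensing, 3 of 4 S, G2 and M genes and 2 of 8 G1 genes were positive. None of these genes passed the test. In a longer list of other genes of mitosis and cytokinesis, 23 of 42 were positive in total RNA (median 0.03), 26 in polysome RNA (0.05) and 29 in monosome RNA (0.09). Of 37 other genes of origins and polymerases 17, 19 and 17 were positive in the 3 fractions.

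**Figure D2:**
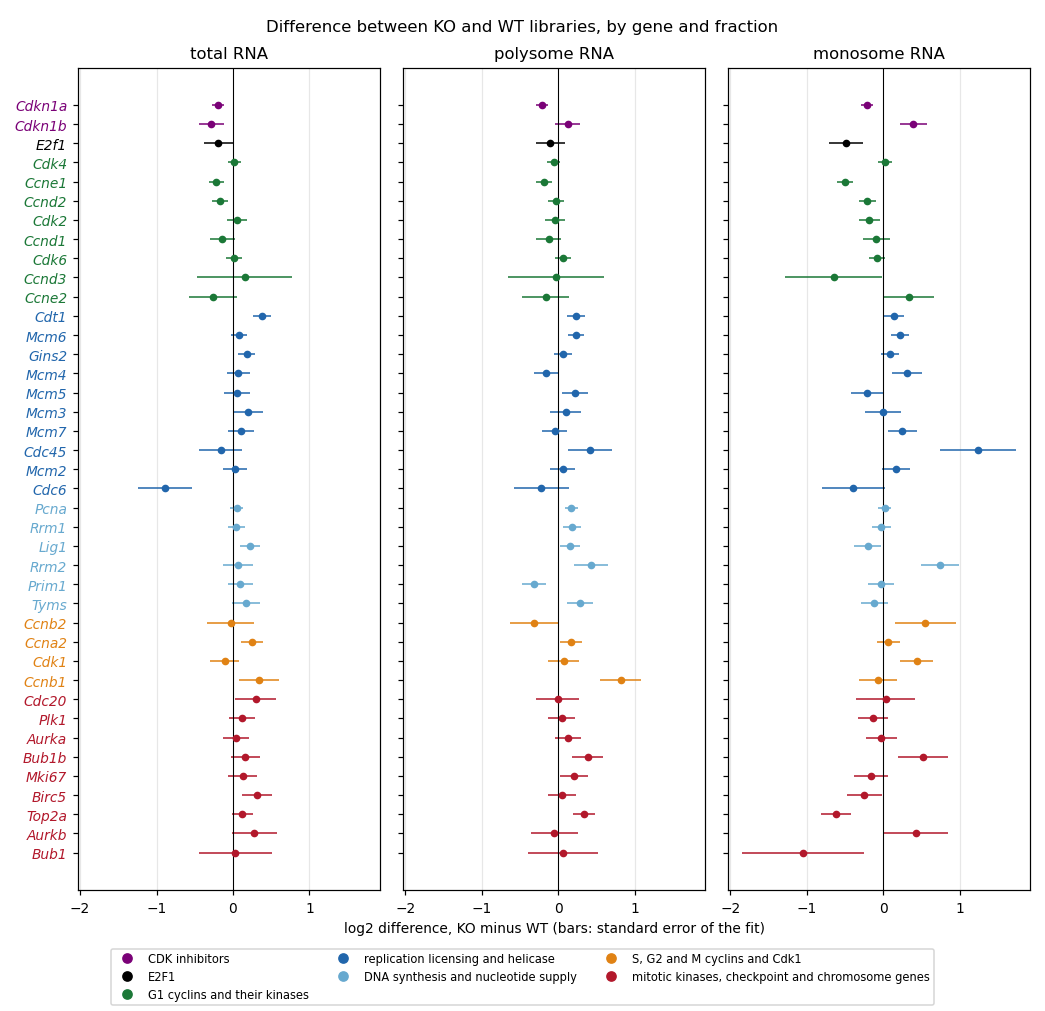
Log2 difference between KO and WT (KO minus WT) of the 40 genes in total, polysome and monosome RNA, with the standard error of the fit over 18 libraries, coloured by role. No gene passed the adjusted threshold, and the widest bars belong to genes with few counts and to Ccnd3.

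Among the CDK inhibitors, Cdkn1a was lower in KO libraries by a like amount in the 3 fractions, without passing the test. It had 502, 477 and 457 CPM in KO and 528, 554 and 568 CPM in WT total RNA, and the groups did not overlap. In polysome RNA it had 600.0, 572 and 549.5 CPM in KO and 697, 647 and 656 CPM in WT, again without overlap. The monosome libraries had 1239, 1503 and 1373 CPM in KO and 1441, 1699 and 1638 CPM in WT, which overlapped. The log2 differences were -0.20 ± 0.08 (adjusted p = 0.697), -0.22 ± 0.08 (adjusted p = 0.544) and -0.22 ± 0.08 (adjusted p = 0.288). Cdkn1b, which encodes the inhibitor p27, had 9.99, 8.17 and 9.48 CPM in KO and 11.4, 9.26 and 13 CPM in WT total RNA, with differences of -0.29 ± 0.16 in total, 0.12 ± 0.16 in polysome and 0.39 ± 0.18 in monosome RNA.

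Of the G1 cyclins, Ccne1 (ENSMUSG00000002068, chromosome 7, 38097984 to 38107534) came nearest to the threshold. In monosome RNA it had 25.6, 21.9 and 23.1 CPM in KO and 33.8, 32.5 and 33.3 CPM in WT, on 194, 168 and 180 counts in KO and 206, 247 and 233 counts in WT. All 3 KO libraries lay below all 3 WT libraries. The log2 difference was -0.50 ± 0.10 (unadjusted p = 0.000244, adjusted p = 0.0686). It passed with DESeq2 (-0.49, adjusted p = 0.0189) and with a filter at a mean of 5 CPM (-0.50, adjusted p = 0.0368), and over all settings the adjusted p ran from 0.0189 to 0.662. In total RNA Ccne1 had 29.8, 27.2 and 23 CPM in KO and 30.7, 33.1 and 29.3 CPM in WT (-0.22 ± 0.10, adjusted p = 0.852), and in polysome RNA 34.2, 32.8 and 28.1 CPM in KO and 37.1, 35.6 and 35.5 CPM in WT (-0.19 ± 0.10, adjusted p = 0.79). Cdk4, Cdk6 and Cdk2, the kinases of this step, differed by 0.02 ± 0.09, 0.01 ± 0.10 and 0.05 ± 0.13 in total RNA.

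Ccnd3, which encodes cyclin D3, spread widely within every group. Its counts in monosome RNA were 183, 645 and 105 in KO and 477, 117 and 682 in WT. The mean coefficient of variation within groups was 50.8%, above that of 98.4% of the 500 genes nearest in level. Its log2 differences between KO and WT were 0.15 ± 0.63, -0.03 ± 0.63 and -0.65 ± 0.64 in total, polysome and monosome RNA, of the size of the standard error or smaller. The other D cyclins were tighter: Ccnd1 had 17.7, 14.9 and 17.7 CPM in KO and 18.8, 17.8 and 18.7 CPM in WT total RNA (-0.14 ± 0.16), and Ccnd2 had 83, 86.8 and 94.9 CPM in KO and 98.1, 97.9 and 102 CPM in WT (-0.17 ± 0.11). Neither overlapped in total RNA, and in polysome RNA Ccnd1 differed by -0.13 ± 0.16 and Ccnd2 by -0.03 ± 0.11. Ccne2 differed by -0.26 ± 0.31, -0.16 ± 0.31 and 0.34 ± 0.33 in total, polysome and monosome RNA. E2f1, which these kinases release from RB, had 11, 9.64 and 8.23 CPM in KO and 10.5, 11 and 11.4 CPM in WT total RNA (-0.19 ± 0.19), with -0.10 ± 0.19 in polysome and -0.49 ± 0.22 in monosome RNA.

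Of the licensing genes, Cdt1 (ENSMUSG00000006585, chromosome 8, 122568015 to 122573128) had 35.2, 37.6 and 35.8 CPM in KO and 25.2, 29.5 and 28.7 CPM in WT total RNA. The groups did not overlap, and the difference of 0.38 ± 0.12 had the smallest p of the 40 there (adjusted p = 0.54). In polysome RNA Cdt1 had 41.7, 42.3 and 37.2 CPM in KO and 33.5, 33.3 and 36.4 CPM in WT (0.23 ± 0.12). Monosome libraries had 27.2, 27 and 37.8 CPM in KO and 24.1, 30 and 29.2 CPM in WT (0.14 ± 0.13), which overlapped. Cdc6, the ATPase that recruits Cdt1 to origins, lay on the WT side: 13, 22 and 11 counts in KO and 20, 27 and 26 counts in WT total RNA, or 0.787, 1.04 and 0.686 CPM and 1.39, 1.74 and 1.61 CPM (-0.89 ± 0.35, adjusted p = 0.701). It had 1.09, 0.992 and 0.399 CPM in KO and 0.844, 1.07 and 0.93 CPM in WT polysome RNA, which overlapped.

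Mcm6 had 24.6, 27.3 and 28.2 CPM in KO and 23.4, 20.3 and 24.4 CPM in WT polysome RNA, without overlap (0.24 ± 0.11, adjusted p = 0.705). In total RNA it had 35.4, 34.2 and 39.4 CPM in KO and 33.4, 34.4 and 35.2 CPM in WT (0.08 ± 0.11). Its partners in the helicase, Mcm2, Mcm3, Mcm4, Mcm5 and Mcm7, differed by -0.16 to 0.22 in polysome RNA, none past the threshold. Gins2 had 27.7, 27.2 and 30.2 CPM in KO and 22.1, 26.4 and 26.7 CPM in WT total RNA (0.18 ± 0.12), without overlap, and differed by 0.06 ± 0.12 in polysome RNA. Cdc45, which activates the helicase, had 8, 15 and 9 counts in KO and 6, 4 and 2 counts in WT monosome RNA (1.24 ± 0.50, adjusted p = 0.348). Those groups did not overlap, at 15 counts or fewer a library, and Cdc45 shares exonic bases with Ufd1l as given above.

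Among the genes of DNA synthesis, Rrm2, the regulated subunit of ribonucleotide reductase, had 6.61, 3.78 and 5.25 CPM in KO and 3.77, 2.77 and 2.86 CPM in WT monosome RNA (0.74 ± 0.25, adjusted p = 0.254). The 2 groups did not overlap. In total RNA it had 5.27, 5.98 and 5.74 CPM in KO and 5.79, 5.85 and 4.65 CPM in WT (0.06 ± 0.20), and in polysome RNA 2.74, 2.42 and 3.05 CPM in KO and 2.08, 1.38 and 2.68 CPM in WT (0.43 ± 0.23). Its partner Rrm1 differed by 0.05 ± 0.11, 0.18 ± 0.12 and -0.03 ± 0.12 in the 3 fractions. Pcna differed by 0.05 ± 0.09, 0.17 ± 0.09 and 0.02 ± 0.09. Lig1 had 11.9, 11.3 and 10.6 CPM in KO and 9.97, 9.83 and 9.12 CPM in WT total RNA (0.23 ± 0.13), and 8.47, 8.8 and 8.69 CPM in KO and 7.48, 8.26 and 7.49 CPM in WT polysome RNA (0.16 ± 0.13). Both sets stood apart, the KO side higher. Tyms differed by 0.17 ± 0.18 and Prim1 by 0.10 ± 0.16 in total RNA.

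Ccnb1, the cyclin of mitotic entry, had 1.65, 1.67 and 1.55 CPM in KO and 1.13, 0.765 and 0.875 CPM in WT polysome RNA (0.82 ± 0.27, adjusted p = 0.5). KO libraries lay above all WT libraries there, on 32, 27 and 31 counts in KO and 20, 15 and 16 counts in WT. Total RNA had 2.06, 2.04 and 1.75 CPM in KO and 1.6, 1.16 and 1.86 CPM in WT (0.34 ± 0.26), and monosome RNA 6.34, 2.74 and 4.35 CPM in KO and 4.76, 4.08 and 5.29 CPM in WT (-0.07 ± 0.25); both overlapped. Top2a lay on the KO side in polysomes and on the WT side in monosomes. It had 4.7, 4.77 and 5.69 CPM in KO and 3.88, 3.62 and 4.49 CPM in WT polysome RNA (0.34 ± 0.14, adjusted p = 0.651), and 2.91, 2.08 and 2.05 CPM in KO and 3.28, 3.82 and 3.72 CPM in WT monosome RNA (-0.62 ± 0.20, adjusted p = 0.285). Neither pair of groups overlapped. In total RNA Top2a had 6.36, 8.45 and 8.36 CPM in KO and 7.46, 7.26 and 6.64 CPM in WT (0.12 ± 0.14).

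Of the other S, G2 and M cyclins, Ccna2 (cyclin A2) had 7.15, 7.03 and 7.73 CPM in KO and 6, 5.91 and 6.51 CPM in WT total RNA (0.25 ± 0.15), without overlap, and Ccnb2 (cyclin B2) differed by -0.03 ± 0.31 in total and -0.31 ± 0.31 in polysome RNA. Their kinase Cdk1 differed by -0.11 ± 0.19, 0.07 ± 0.20 and 0.44 ± 0.22 in total, polysome and monosome RNA. Mki67 differed by 0.13 ± 0.19, 0.21 ± 0.19 and -0.16 ± 0.22. Plk1 and Aurka, kinases of the mitotic spindle, stood at 0.12 ± 0.17 and 0.04 ± 0.17 in total RNA. Aurkb, partner of survivin, stood at 0.28 ± 0.29, Birc5 at 0.31 ± 0.20 and Cdc20, an activator of the anaphase-promoting complex, at 0.30 ± 0.27. The spindle checkpoint genes Bub1 and Bub1b stood at 0.03 ± 0.47 and 0.16 ± 0.19. The standard errors of the mitotic genes are wide beside these values, and none passed.

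**Figure D3:**
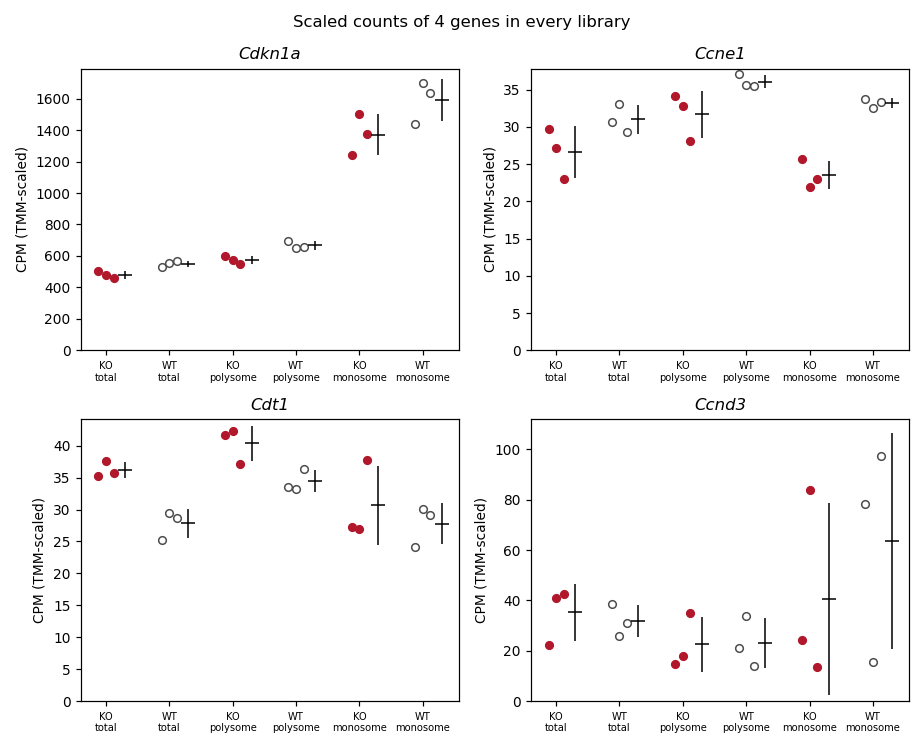
CPM (TMM-scaled) of Cdkn1a, Ccne1, Cdt1 and Ccnd3 in every library of KO (filled) and WT (open) total, polysome and monosome RNA, with the mean and SD of each group as a bar (n = 3). Cdkn1a is highest in monosome RNA, Ccne1 is lower in all KO than in all WT monosome libraries, and Ccnd3 scatters within groups.

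Whether the share of an mRNA on polysomes differed between genotypes was tested as the difference of 2 differences. For the ratio of polysome to total RNA, 0 of the 40 genes passed, as did 0% of all genes, and none of the 40 had an unadjusted p under 0.05 (1.79% of all genes, 0.994% higher and 0.798% lower). A positive difference was found in 23 of 40, against 49.4% of all genes. DESeq2 also called 0. The smallest p belonged to Prim1, a primase subunit (-0.42 ± 0.23, adjusted p = 1), Cdkn1b (0.41 ± 0.23), Cdc45 (0.58 ± 0.40) and Cdc6 (0.67 ± 0.51). Prim1 had 3.1, 2.73 and 3.05 CPM in KO and 3.71, 4.03 and 3.34 CPM in WT polysome RNA, beside 3.45, 4.08 and 4.18 CPM in KO and 4.74, 3.09 and 3.16 CPM in WT total RNA.

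For the ratio of polysome to monosome RNA 0 of the 40 passed as well, where 0.0548% of all genes did (0.0469% higher, 0.00782% lower). A positive difference was again found in 23 of 40, against 53.4% of all genes. An unadjusted p under 0.05 was reached by 3 genes, all toward polysomes in KO (5.3% of all genes, 3.25% higher and 2.06% lower): Top2a (0.97 ± 0.24, adjusted p = 0.412), Ccnb1 (0.89 ± 0.37, adjusted p = 0.85) and Ccne1 (0.31 ± 0.14, adjusted p = 0.935). Mcm4, next in p, had -0.46 ± 0.25 (adjusted p = 0.979), with 4.91, 4.22 and 3.65 CPM in KO and 5.18, 4.59 and 4.49 CPM in WT polysome RNA, and 5.42, 4.95 and 3.71 CPM in KO and 4.27, 2.77 and 4.43 CPM in WT monosome RNA. The values of Top2a, Ccnb1 and Ccne1 behind these ratios are those given above.

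Between fractions many of the 40 passed the test, in shares near those of all genes when higher and lower calls are pooled. Between polysome and total RNA the directions differed: calls of the 40 were mostly lower, and those of all genes were nearly even. Against total RNA, 5 of the 40 were higher and 15 lower in polysome RNA (mean of both genotypes), where 47.4% of all genes passed, 23.3% higher and 24.2% lower. The median of the 40 was -0.23, against -0.02 for all genes. Lower genes were found in every role except that of E2f1, a role of 1 gene. Leaving out 1 library at a time gave 14 to 19 calls. In KO alone 2 were higher and 8 lower (31.9% of all genes, 16% and 15.8%), and in WT alone 2 and 10 (33%, 16.5% each way). Of the stromal markers 0 were higher and 8 of 9 lower on polysomes, with a median of -1.07, and their part here was not tested.

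The enzymes of DNA synthesis had the lowest median of the roles (-0.44), and 4 of 6 were lower past the threshold. Rrm2 was furthest down, with 2.74, 2.42 and 3.05 CPM in KO polysome RNA against 5.27, 5.98 and 5.74 CPM in KO total RNA, and 2.08, 1.38 and 2.68 CPM in WT polysome RNA against 5.79, 5.85 and 4.65 CPM in WT total RNA (-1.23 ± 0.15, adjusted p = 8.1e-06). All 6 polysome libraries lay below all 6 total libraries. Pcna had 43.8, 46.1 and 43.7 CPM in KO polysome RNA against 70.2, 63.3 and 65.5 CPM in KO total RNA, and 39.7, 42.2 and 36.9 CPM in WT polysome RNA against 68.1, 65.3 and 58.9 CPM in WT total RNA (-0.64 ± 0.06, adjusted p = 1e-06). These too did not overlap. Rrm1 (-0.53 ± 0.08, adjusted p = 6.93e-05) and Lig1, the ligase that joins Okazaki fragments (-0.35 ± 0.09, adjusted p = 0.00591), were the other two.

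Mcm4 differed by -0.92 ± 0.11 on the log2 scale (adjusted p = 7.13e-06), with 4.91, 4.22 and 3.65 CPM in KO polysome RNA against 8.78, 8.41 and 8.92 CPM in KO total RNA. WT libraries had 5.18, 4.59 and 4.49 CPM in polysome RNA against 9.27, 7.65 and 7.94 CPM in total RNA, and no polysome library reached a total library. Mcm6 (-0.52 ± 0.08, adjusted p = 4.64e-05) and Mcm3 (-0.42 ± 0.14, adjusted p = 0.022) passed too, and Mcm2, Mcm5 and Mcm7 did not (-0.25 ± 0.12, -0.21 ± 0.12 and 0.05 ± 0.12). Top2a had 4.7, 4.77 and 5.69 CPM in KO polysome RNA against 6.36, 8.45 and 8.36 CPM in KO total RNA, and 3.88, 3.62 and 4.49 CPM in WT polysome RNA against 7.46, 7.26 and 6.64 CPM in WT total RNA (-0.72 ± 0.10, adjusted p = 2.62e-05), without overlap. Bub1b, the checkpoint protein BubR1, had 2.43, 3.16 and 3.45 CPM in KO polysome RNA against 4.06, 4.37 and 4.37 CPM in KO total RNA, and 1.8, 1.99 and 3.12 CPM in WT polysome RNA against 3.07, 4.05 and 4.28 CPM in WT total RNA (-0.61 ± 0.14, adjusted p = 0.00184). Its highest 3 polysome libraries lay within the range of total RNA. The remaining genes past the threshold on the lower side were Ccnd2 (-0.54), Cdk1 (-0.53), Ccnb1 (-0.50), Ccnd1 (-0.31), Cdkn1b (-0.30) and Cdk6 (-0.18, adjusted p = 0.0499).

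Of the 5 genes higher on polysomes, Cdk4 did not overlap: 143, 141 and 138 CPM in KO polysome RNA against 122, 111 and 93 CPM in KO total RNA, and 149.7, 143 and 147 CPM in WT polysome RNA against 114, 100.2 and 107 CPM in WT total RNA (0.41 ± 0.06, adjusted p = 6.63e-05). Cdkn1a (0.27 ± 0.05, adjusted p = 0.000827) and Ccne1 (0.23 ± 0.07, adjusted p = 0.0132) passed as well, with the library values given above. Birc5, which encodes survivin, a subunit of the chromosomal passenger complex, had 4.34, 3.16 and 4.09 CPM in KO polysome RNA against 3.15, 3.51 and 3.12 CPM in KO total RNA. In WT it had 4.33, 3.06 and 3.83 CPM in polysome RNA against 2.72, 2.38 and 2.79 CPM in total RNA (0.38 ± 0.14, adjusted p = 0.0316). The calls of Birc5 and Cdt1 (0.23 ± 0.09, adjusted p = 0.0357) rest on the full set of libraries. Birc5 lost its call without KO total replicate 3, WT total replicate 2, KO polysome replicate 1 or 3, or WT polysome replicate 1 or 3, and Cdt1 without KO total replicate 3, WT total replicate 1 or 3, KO polysome replicate 1 or 2, or WT polysome replicate 1 or 3 (adjusted p up to 0.0864 and 0.0887).

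Against monosome RNA, 14 of the 40 were higher and 15 lower in polysome RNA, where 67.9% of all genes passed, 33.9% higher and 34% lower. Medians were -0.04 for the 40 and 0.02 for all genes. Licensing genes leaned to polysomes (5 of 10 higher, 2 lower), and enzymes of DNA synthesis (1 higher, 4 lower of 6) and the S, G2 and M cyclins with Cdk1 (0 higher, 3 lower of 4) leaned to monosomes. In KO alone 13 were higher and 12 lower (58.1% of all genes, 28.6% and 29.5%), and in WT alone 10 and 10 (55.2%, 26.2% and 29%). These directions depend on the scaling of the monosome libraries: without scaling beyond library size the median of all genes moved to 1.03 and that of the 40 to 0.97, and the split became 29 higher and 4 lower, the 4 being Ccnb1, Pcna, Tyms and Cdkn1a. Each difference below is relative to the median gene under TMM scaling.

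Toward polysomes, Lig1 had 8.47, 8.8 and 8.69 CPM in KO polysome RNA against 4.36, 2.34 and 3.71 CPM in KO monosome RNA, and 7.48, 8.26 and 7.49 CPM in WT polysome RNA against 3.94, 4.35 and 3.72 CPM in WT monosome RNA (1.13 ± 0.11, adjusted p = 1.42e-07). The fractions did not overlap. Cdc45 had 2.89, 1.61 and 2.2 CPM in KO polysome RNA against 1.06, 1.95 and 1.15 CPM in KO monosome RNA, and 1.58, 1.84 and 1.64 CPM in WT polysome RNA against 0.984, 0.527 and 0.286 CPM in WT monosome RNA (1.11 ± 0.28, adjusted p = 0.00252), with 15 counts or fewer in each monosome library and some overlap. Bub1b had 1.59, 1.56 and 1.66 CPM in KO monosome RNA and 1.48, 0.922 and 1 CPM in WT monosome RNA, below every polysome library (0.97 ± 0.19, adjusted p = 0.000244). E2f1, a factor that switches on S phase genes, had 11.5, 11.4 and 10.5 CPM in KO polysome RNA against 5.55, 4.17 and 5.63 CPM in KO monosome RNA, and 12.3, 12.3 and 11.2 CPM in WT polysome RNA against 10.8, 5.53 and 5.43 CPM in WT monosome RNA (0.93 ± 0.15, adjusted p = 3.38e-05). Only 1 WT monosome library of E2f1 reached its polysome range. Bub1, a checkpoint kinase, did not pass (0.80 ± 0.45, adjusted p = 0.128), on 0, 8 and 1 counts in KO and 2, 5 and 10 counts in WT monosome RNA. It passed without KO monosome replicate 2 (2.02, adjusted p = 0.00414).

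Toward monosomes, Ccnb1 stood furthest (-1.90 ± 0.18, adjusted p = 1.6e-07): its polysome libraries, at most 1.67 CPM, all lay below its monosome libraries, at least 2.74 CPM. Pcna had 117, 104 and 112 CPM in KO and 96.8, 114 and 118 CPM in WT monosome RNA, more than in any polysome library (-1.39 ± 0.06, adjusted p = 2.03e-11). Tyms, thymidylate synthase, had 4.75, 4.59 and 5.14 CPM in KO polysome RNA against 9.78, 10.6 and 12.5 CPM in KO monosome RNA, and 4.89, 3.31 and 3.72 CPM in WT polysome RNA against 11.6, 13.3 and 10.7 CPM in WT monosome RNA (-1.38 ± 0.12, adjusted p = 6.59e-08). Cdkn1a, whose monosome values are given above, stood at -1.26 ± 0.06 (adjusted p = 1.84e-11), without overlap. Ccnd3 passed (-1.15 ± 0.45, adjusted p = 0.0336) on libraries that overlapped, and lost the call without any of KO polysome replicate 1 or 2, WT polysome replicate 1 or 3, KO monosome replicate 2 or WT monosome replicate 1 or 3. The widest move was to -0.59 (adjusted p = 0.203) without KO monosome replicate 2. Its call was also lost with limma-voom (-0.98), a robust prior (adjusted p = 0.0577), the 4 groups compared alone (0.0741) and no scaling (-0.14, adjusted p = 0.772).

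Members of 1 family parted, relative to the median gene; without scaling none of the genes said here to lean to monosomes was lower past the threshold. Cyclins D1 and D2 leaned to polysomes (Ccnd1 0.59 ± 0.12, Ccnd2 0.66 ± 0.08), and cyclin E2 to monosomes (Ccne2 -1.05 ± 0.23) where cyclin E1 leaned to polysomes (Ccne1 0.27 ± 0.07). Cdk6 leaned to polysomes (0.79 ± 0.07), and Cdk4 (-0.82 ± 0.06), Cdk2 (-0.60 ± 0.09) and Cdk1 (-0.76 ± 0.15) to monosomes. All of these passed the test. Of the licensing genes, Mcm6 (0.49), Mcm5 (0.46), Gins2 (0.41) and Cdt1 (0.35) leaned to polysomes with Cdc45, and Cdc6 (-0.80) and Mcm2 (-0.30) to monosomes. Top2a (0.62) and Mki67 (0.41) leaned to polysomes with Bub1b, and Plk1 (-0.59) to monosomes. Ccna2 (-0.81), Rrm2 (-0.76) and Prim1 (-0.89) leaned to monosomes. The genes that did not pass, beside Bub1, were Aurka, Aurkb, Birc5, Ccnb2, Cdc20, Cdkn1b, Mcm3, Mcm4, Mcm7 and Rrm1.

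Coding length, from the GENCODE M21 annotation, moved with the lean between polysomes and monosomes. Across the 40 genes Spearman's rho was 0.44, against 0.41 across 11688 genes with a coding length, where genes share libraries and are not replicates. In the 13 genes under 1000 bases the median log2 difference was -0.60 (-0.40 in 3904 such genes overall), in the 15 of 1000 to 2000 bases -0.23 (0.05 in 4473), and in the 12 over 2000 bases 0.44 (0.46 in 3311). Between polysome and total RNA, rho was -0.19 in the 40 and -0.54 overall. There the 13 short genes had a median of -0.18, against 0.25 for short genes overall.

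**Figure D4:**
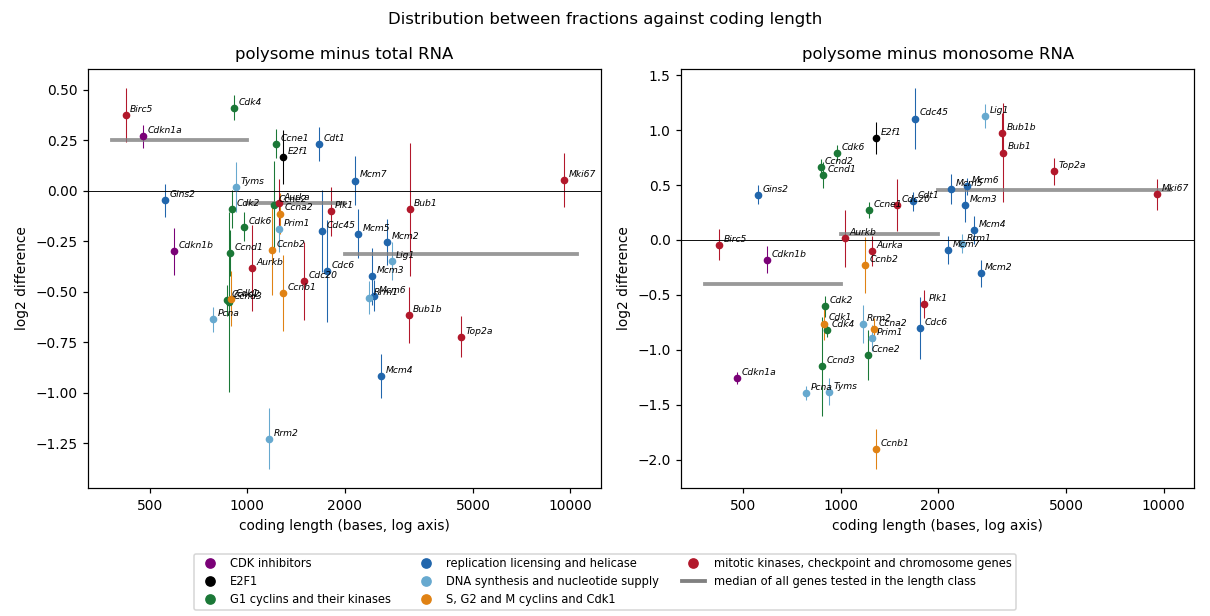
Log2 difference between polysome and total RNA (left) and polysome and monosome RNA (right), mean of both genotypes with the standard error, against coding length (log axis) for the 40 genes, coloured by role. Grey bars give the median of all genes tested in 3 length classes; on the right the grey bars run from negative in short to positive in long coding regions under TMM scaling, and so do the class medians of the 40 genes.

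Other genes of the pathway, from 4 lists with 120 of 123 genes tested, had 0 calls between KO and WT by edgeR in total, polysome and monosome RNA. E2f5, a repressor of the E2F family, had the smallest p of the lists in total RNA (-0.43 ± 0.08, adjusted p = 0.154), and voom and DESeq2 each called 1 gene of its list there. In monosome RNA the smallest p belonged to Cdkn1c, which encodes the inhibitor p57 (0.39 ± 0.09, adjusted p = 0.0976), with 0.27 ± 0.09 in total and 0.25 ± 0.09 in polysome RNA. There DESeq2 called 1 gene of its list, and so did edgeR without WT monosome replicate 1. Between polysome and total RNA 29 of the 120 were higher and 25 lower, beside 47.4% of all genes called. In the list of other CDK inhibitors and p53 targets 11 of 21 were higher and 2 lower, with a median of 0.22. The higher ones included Cdkn2a (1.24 ± 0.33), which encodes p16 and p19ARF, and Bbc3 (0.85 ± 0.12), which encodes PUMA. In the list of mitosis and cytokinesis 6 of 42 were higher and 13 lower, with a median of -0.36 and Dlgap5 (-1.01 ± 0.22) lowest of those that passed. The list of origin recognition and polymerases had 10 higher and 6 lower of 37, and that of E2F, RB and MuvB factors 2 higher and 4 lower of 20. Between polysome and monosome RNA 29 of the 120 were higher and 42 lower, beside 67.9% of all genes called. In the list of mitosis and cytokinesis 9 were higher and 15 lower, with the extremes at Aspm (2.93 ± 0.93) and Anln (-1.74 ± 0.22), which act at the spindle pole and the cleavage furrow. The origin and polymerase list had 8 higher and 14 lower, the E2F, RB and MuvB list 4 and 7, and the list of CDK inhibitors and p53 targets 8 and 6. Without scaling nearly all calls were on the higher side: 34 higher and 0 lower of origins and polymerases, 30 and 1 of mitosis, 16 and 2 of the E2F list, and 17 and 1 of CDK inhibitors and p53 targets. With a filter at a mean of 5 CPM, which leaves fewer genes of mitosis to test, that list had 4 calls against total and 7 against monosome RNA.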

How the data were processed

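Messenger RNA of 18 libraries was measured by sequencing. The authors deposited 1 table of gene counts (raw, whole numbers) with FPKM values beside them; per the labels' protocols, libraries were made with a SMARTer kit. HISAT2 2.0.4, StringTie 1.3.0 and fastp 0.23.2 are listed, with no role, in the submitters' processing notes. The genome build, strandedness and treatment of multiply mapped reads are not given in the sources used here. Gene positions are those of the deposited table, and 32 of the 40 genes have the same start and end in GENCODE M21 (GRCm38).

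The counts entered edgeR 4.0.16 under R 4.3.3: filterByExpr over 6 groups (12782 genes kept), TMM scaling (monosome factors 0.605 to 0.664, all other factors 1.24 to 1.30), 1 mean per group over all 18 libraries, and the two-sided quasi-likelihood F test (prior degrees of freedom 3.41), with Benjamini-Hochberg adjustment over all genes tested and a threshold of 0.05. Each log2 difference is given ± its standard error from that fit. Library totals of 9190034 to 16711558 counts limit genes of few counts. The deposited FPKM were used, untested, for levels between genes, and the lengths behind them were not on 1 basis.

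The 40 genes and all lists were chosen with earlier results of these data known. Named with library values were the genes past the threshold or, with fewer than 4, the 4 of smallest p (KO against WT), and the 5 furthest above and below the median of all genes (fractions). Alternatives were RLE factors, no scaling, no filter, a 5 CPM filter, only the groups compared, the replicate block, voom with quality weights (limma 3.58.1), DESeq2 1.42.0, a robust prior and leaving out each library. With fewer libraries than 4 in a group, no library was screened as an outlier. Promoter windows are from RefSeq. Plots were made in Python 3.11.15 with matplotlib 3.10.9.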

Additional observations from a re-analysis of the deposited data

How the results depend on the processing

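In KO against WT monosome RNA the count of the 40 genes that passed was 0, and 1 (lower, Ccne1) with a filter at a mean of 5 CPM, with DESeq2, and in a fit blocked on replicate numbers ( log2 difference -0.50, adjusted p = 0.0359). Deviations of same-numbered libraries correlated by -0.03 to 0.19 over 9554 genes, over 0.1 in 2 of 3 pairs for KO polysome with total RNA and in no other pair, so the numbers are not taken as pairs. As a hint from the data, in 3 of 3 numbers polysome libraries correlated best with the total library of their own number, in KO and in WT. The replicate block joins KO and WT libraries of a number, so a pairing of fractions within each genotype was not fitted. In the other KO against WT comparisons the count was 0 under every setting tried, also without any 1 library. Polysome against total RNA gave 15 to 23 calls and polysome against monosome RNA 20 to 33 (29 higher and 4 lower without scaling); without 1 library they gave 14 to 19 and 26 to 29. Without Ccnd3, chosen after seeing the data, polysome against monosome RNA gave 28. Over all genes, KO against WT calls ran from 1 to 67 in total, 1 to 55 in polysome and 10 to 118 in monosome RNA, 0 to 4 in the polysome-to-total ratio and 6 to 27 in the polysome-to-monosome ratio. Genes with few counts, such as Bub1, Cdc6 and Cdc45, are limited by depth.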
